A study of Mus musculus with 10 samples.

Results

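The 83 genes described here encode the proteins of the cytosolic ribosome. They were taken by name from the 49671 genes of the table (names starting Rpl or Rps followed by a number, with the few related forms, and Rplp0 to Rplp2 and Rpsa), leaving out the kinases named Rps6k and rows named as pseudogenes. Of these, 32 encode proteins of the small subunit and 51 proteins of the large subunit. They lie on 19 chromosomes, 4 of them on the X. RNA was sequenced from GFP-positive cells sorted from mouse embryos at embryonic day 10.5, with 1 library per embryo and 5 embryos per genotype. The p53_activated embryos were Wnt1Cre;R26mTmG;p53LSL-25,26/+, and the control embryos were Wnt1Cre;R26mTmG;p53+/+. Both groups therefore carried the Wnt1-driven Cre recombinase and the R26mTmG reporter, which turns on membrane GFP where Cre has acted, on a mixed 129/Sv-C57BL/6 background. In the p53_activated embryos Cre also removed a stop cassette from 1 Trp53 allele and so released a p53 altered at residues 25 and 26 beside the normal protein. Wnt1 is active in the dorsal neural tube, from which the neural crest arises, so the sorted cells can include neural tube cells.

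Each ribosome holds a single copy of nearly every ribosomal protein, and the genes are transcribed at high level in proliferating cells. Many of their mRNAs begin with a pyrimidine tract that lets mTOR signalling set their translation. When ribosome assembly is disturbed, Rpl5 and Rpl11 bind with the 5S rRNA to Mdm2, the ubiquitin ligase that degrades p53, and p53 accumulates; heterozygous loss of several ribosomal proteins causes Diamond-Blackfan anaemia, whose features can include craniofacial defects. In these embryos p53 was altered directly, and the genes of the ribosomal proteins were read out.

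Library totals ran from 14644162 to 28379562 counts in p53_activated and from 12368058 to 23514828 in control embryos. As a check of the labels, Cdkn1a, the p53 target encoding p21, averaged 105 ± 11.9 CPM in p53_activated and 7.93 ± 1.59 CPM in control embryos (SD, n = 5 each; CPM, the counts scaled to a common library size by TMM, are used throughout). Mdm2 averaged 47.3 ± 4.41 CPM in p53_activated and 24.5 ± 1.06 CPM in control embryos. Trp53 averaged 29.1 ± 2.99 CPM in p53_activated and 18.2 ± 5.12 CPM in control embryos. Of 10 neural crest markers, the homeobox gene Prrx2 was called lower (log2 fold change -0.41) and the other 9 did not pass the test; the summed level of all 10 was 367 to 444 CPM in p53_activated and 386 to 488 CPM in control embryos. All 8 neuron markers fell, with a summed level of 343 to 551 CPM in p53_activated and 674 to 894 CPM in control embryos. Markers of red blood cells summed to 502 to 6020 CPM in p53_activated and 829 to 4487 CPM in control embryos, so globin transcripts reached some libraries of both genotypes. Summed markers of macrophages (19.4 to 46.2 CPM in p53_activated, 13.0 to 64.7 CPM in control), endothelium (25.3 to 42.7 CPM in p53_activated, 15.7 to 56.6 CPM in control), muscle (29.9 to 58.3 CPM in p53_activated, 38.6 to 82.5 CPM in control) and epithelium (48.5 to 138 CPM in p53_activated, 86.0 to 203 CPM in control) overlapped between the genotypes. None of these passed the edgeR test. All 8 epithelial markers had a negative log2 fold change (median -0.79), 2 of them at an unadjusted p under 0.05. Of the 7 muscle markers tested (median -0.48), 2 were lower at an unadjusted p under 0.05 and DESeq2 called 2 lower. Over all genes, in either direction, 22.6% had an unadjusted p under 0.05 and DESeq2 called 11.5%. Summed markers of the neural tube also overlapped between the genotypes (872 to 1194 CPM in p53_activated, 675 to 1139 CPM in control). Of these 8 markers, 7 had a positive log2 fold change (median 0.19) and 2 were higher at an unadjusted p under 0.05. Neither edgeR nor DESeq2 called any of them. In such bulk samples fewer cells of a type and less RNA per cell cannot be told apart.

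Ribosomal protein transcripts made up 17.6% to 20.7% of the counts of each library, and their levels spanned several orders of magnitude. Per kilobase of exon, the highest were Rplp1 of the ribosomal stalk (26280.0 CPM per kilobase over all 10 libraries), the small basic protein gene Rpl41 (11974), Rps15 (11180.1), Rpl8 (6374) and Rpsa (5225), which also encodes a laminin-binding protein. The lowest of those tested were Rpl6l (5.17), Rpl24 (9.72), Rps27 (18.8), Rpl5 (23.7) and Rpl10 (25.4). The length is that of all annotated exons of a gene merged over its transcripts, so the order also depends on the annotation. Rps24, with 11907 CPM over all libraries, was divided by 6256 bases, and Rplp1, with 13114 CPM, by 499 bases. By counts alone Rpsa held the most, 8.73% of the counts of all members, and the 10 largest members held 52.5%. Several of these members have near-identical copies elsewhere in the genome: of the counts of each gene and its copies together, the copies held 87.0% for Rpl24, 74.6% for Rpl5, 50.8% for Rps27 and 19.5% for Rpl10. Rpsa, among the highest, had 18.2% in its copies, and the part of copies in the order of levels was not tested. How reads that match several places were counted is not stated in any source at hand, and for such members a level is that of the reads assigned to the named gene.

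**Figure D1:**
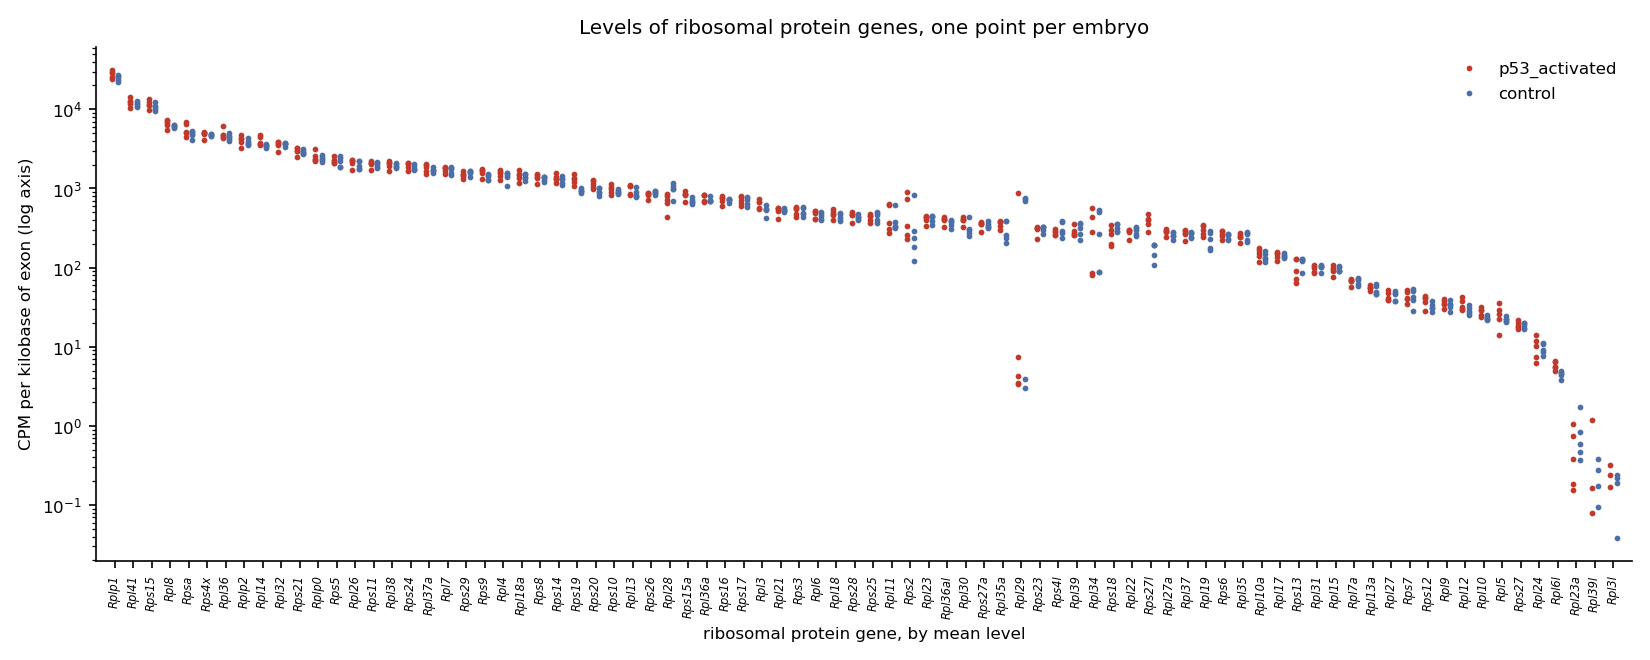
CPM per kilobase of exon (log axis) of the 82 ribosomal protein genes with any count, ordered by mean level, with 1 point per embryo (p53_activated left of control for each gene; libraries at 0 are not drawn). Levels run from Rplp1 at the left to Rpl3l at the right, and Rpl29, Rpl34 and Rps2 spread far more between embryos of one genotype than their neighbours.

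The comparison asks whether the altered p53 changes the transcripts of the ribosome itself. Most ribosomal protein genes differed little between the genotypes. Of the 79 members with enough counts to be tested (32 of the small and 47 of the large subunit), Rps27l and Rps19 were called higher in p53_activated embryos at an adjusted p under 0.05, and none was called lower. That is 2.53% of the members tested, against 7.23% of the 14528 genes tested called in either direction (4.49% higher, 2.74% lower). At an unadjusted p under 0.05 there were 11 members higher and 1 lower in edgeR, together 12 of 79, against 22.6% of all genes, and DESeq2 called 3 higher (Rps27l, Rps19 and Rps20) and 1 lower (Rpl28), against 11.5% of all genes.

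Log2 fold changes were small and mostly above 0. They were positive for 59 of the 79 members (74.7%), against 48.6% of all genes tested, with a median of 0.07 against -0.01. The median was 0.04 for the small subunit (25 of 32 positive) and 0.08 for the large subunit (34 of 47 positive). For 65 members (82.3%) the log2 fold change lay within ±0.25, against 54.2% of all genes. These genes were also measured more precisely than most: the median SE of the log2 fold change was 0.098 for the members and 0.191 for all genes, and their median exon length was 1734 bases against 4237 bases. The median of the members was 0.12 without p53_activated replicate 4 and 0.04 without p53_activated replicate 3. With a trend on exon length removed from each library it was 0.15, and 8 members were called, all higher, against 6.56% of all genes (Rps27l, Rps19, Rps20, Rps9, Rpl8, Rpl10, Rpl14 and Rpl19). With the replicate number as a block as well, the calls were again Rps27l and Rps19.

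**Figure D2:**
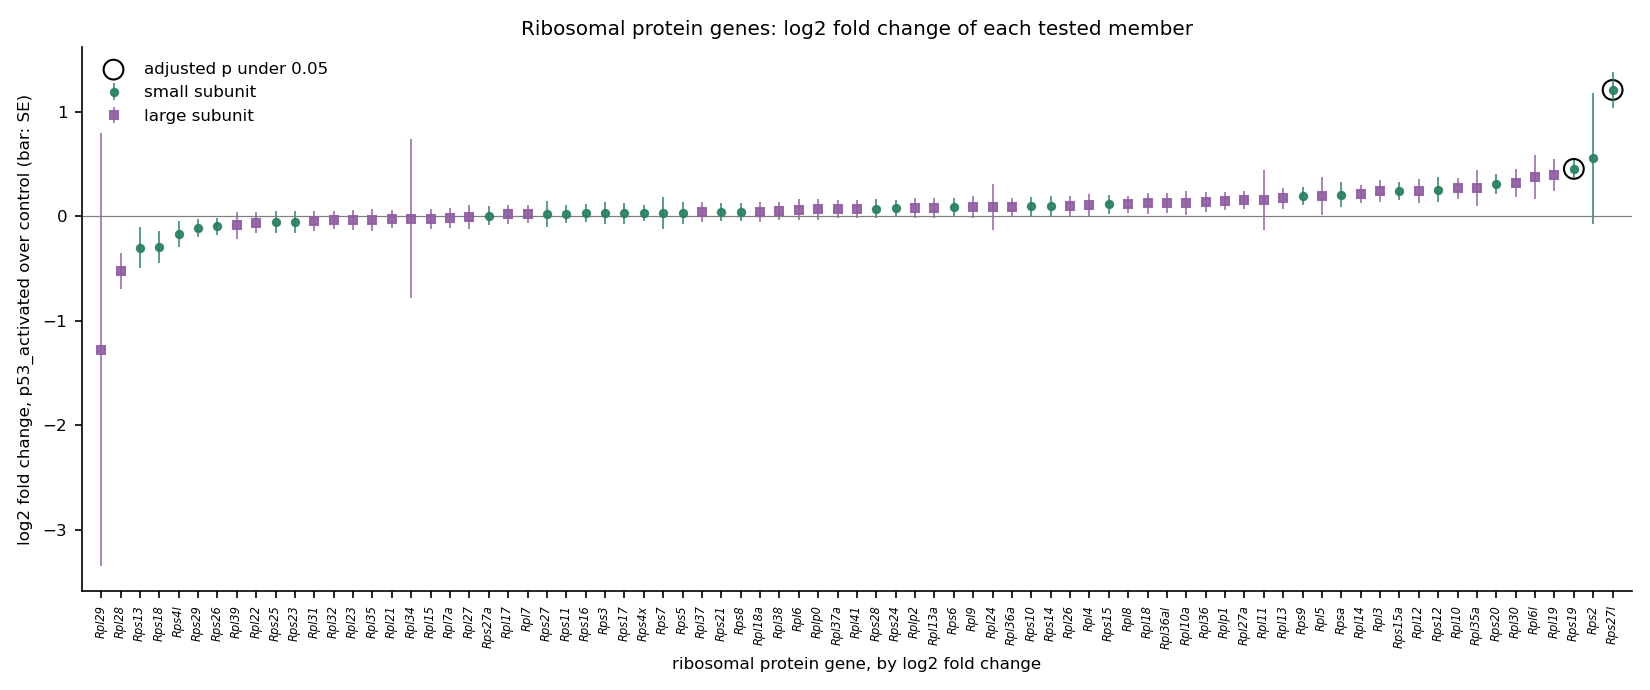
Log2 fold change, p53_activated over control, of the 79 tested ribosomal protein genes in rank order (points; bars are the SE of the edgeR fit; circles for the small and squares for the large subunit). Rps27l stands at 1.21 and Rps19 at 0.45, both ringed for an adjusted p under 0.05; the widest bars belong to Rpl29, Rpl34 and Rps2.

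Rps27l had the largest change. It encodes a small-subunit protein that is nearly the same as Rps27, and its human counterpart is a known direct target of p53 with a binding site in the first intron. In p53_activated embryos 1 to 5 it had 386, 337, 330.1, 229.9 and 289.9 CPM, against 87.3, 118, 158, 159 and 157 CPM in control embryos 1 to 5. The groups did not overlap; p53_activated replicate 4 was the lowest of the p53_activated embryos, and control replicates 3, 4 and 5 were the highest controls. The log2 fold change was 1.21 ± 0.17 (SE, n = 5 each; edgeR quasi-likelihood adjusted p = 0.00086). Rps27 did not pass the test, with 20.9, 19.1, 18.7, 17.7 and 22.8 CPM in p53_activated embryos and 21.0, 17.7, 19.9, 21.0 and 17.8 CPM in control embryos. Its groups overlapped throughout, with a log2 fold change of 0.02 ± 0.12 (edgeR adjusted p = 0.94). Per kilobase of exon, over all libraries, the level of Rps27l was 276 CPM and that of Rps27 18.8 CPM, but Rps27 has an exact copy of its coding sequence in the gene Rps27rt on chromosome 9 (19.9 ± 4.81 CPM in p53_activated and 20.9 ± 2.68 CPM in control embryos), so that reads from the coding part of these genes cannot be told apart.

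The coding sequences of the pair are shown because they decide whether reads of Rps27l could be taken for Rps27. Each is 255 bases long (GENCODE M21, GRCm38); Rps27l (ENSMUSG00000036781) lies at chr9:66946086-66949516 on the plus strand and Rps27 (ENSMUSG00000090733) at chr3:90212522-90213651 on the minus strand. Capitals mark the 61 positions at which they differ, which leaves 76.1% of the bases alike.
Rps27l: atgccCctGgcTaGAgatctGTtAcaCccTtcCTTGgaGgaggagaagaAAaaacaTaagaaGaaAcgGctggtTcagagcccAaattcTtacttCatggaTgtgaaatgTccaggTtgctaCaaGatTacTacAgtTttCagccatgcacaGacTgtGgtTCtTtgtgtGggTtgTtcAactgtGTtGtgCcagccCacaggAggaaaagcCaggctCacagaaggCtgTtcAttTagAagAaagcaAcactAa
Rps27: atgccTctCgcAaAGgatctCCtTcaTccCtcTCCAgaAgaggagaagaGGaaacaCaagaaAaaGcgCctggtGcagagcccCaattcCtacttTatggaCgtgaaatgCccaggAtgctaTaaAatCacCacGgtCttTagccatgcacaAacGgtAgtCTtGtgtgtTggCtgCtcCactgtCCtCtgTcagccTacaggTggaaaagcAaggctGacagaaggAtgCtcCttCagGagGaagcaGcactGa
The differences are spread along the whole length, and no other gene matched the coding sequence of Rps27l or of Rps19 at 95% identity over 80% of it.

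The start of Rps27l was searched for the p53 half-site, the consensus of 10 bases that reads the same on both strands, of which a full site has a pair close together. In the RefSeq windows (GRCm38.p6) from 250 bases before to 50 bases after each annotated start, at least 1 half-site without mismatch occurred at 8 of the 74 starts of members (10.8%), against 8.36% of all 32851 starts. These 74 starts belonged to 62 of the 83 members. A window with 2 or more half-sites occurred at 1 start of a member, in Rps27l, and at 0.359% of all starts. That stretch, chr9:66946193-66946325 on the plus strand, belongs to the second of the 2 starts annotated for Rps27l, at 66946413, and lies before it. Counted from the first start, at 66946086, it is in the first intron (66946181 to 66946830). The half-sites without mismatch, in capitals, have 93 bases between them. The 10 bases directly before the second one differ from the consensus at their last base only. With the second half-site they make a pair with no base between and 1 mismatch. Full sites with a mismatch were not searched for at the other starts, so how common such a pair is was not counted.
Rps27l first intron: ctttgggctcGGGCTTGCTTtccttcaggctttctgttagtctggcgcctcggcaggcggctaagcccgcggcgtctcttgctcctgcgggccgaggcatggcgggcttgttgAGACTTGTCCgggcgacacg
A match is only a match of letters, and binding was not measured here.

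Rps19, a small-subunit protein needed to mature the small-subunit precursor and the gene most often mutated in Diamond-Blackfan anaemia, was the other member called. It had 5658, 6337, 7039, 5069.6 and 6224 CPM in p53_activated embryos 1 to 5, against 4764, 4404, 4113, 4461 and 4386 CPM in control embryos 1 to 5. Again the groups were apart, with replicate 4 the lowest and replicate 3 the highest of the p53_activated embryos. The log2 fold change was 0.45 ± 0.09 (SE, n = 5 each; edgeR quasi-likelihood adjusted p = 0.00443). Rps19 (ENSMUSG00000040952) lies at chr7:24884371-24889806 on the plus strand (GRCm38) and shares no exon base with another annotated gene, and neither does Rps27l. These were the only members of the 79 whose groups did not overlap, 2 members against 8.07% of all genes. The call of each held in all 24 alternative settings, with a log2 fold change of 1.09 to 1.31 and an adjusted p of at most 0.0122 for Rps27l, and of 0.41 to 0.51 and at most 0.0326 for Rps19.

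After group means were removed, Rps27l varied over the 10 libraries most like Rpl23, Rps25 and Rpl4 (Pearson r of log2 CPM of 0.97, 0.97 and 0.97). Rps19 varied most like Rps10, Rpl37a and Rpl41 (r of 0.98, 0.96 and 0.94). These correlations are over libraries that share depth and scaling, and they are given as a description.

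The next smallest p-values belonged to Rps20, Rpl28, Rps15a, Rpl10 and Rpl19, none of which passed the test. Rps20, whose mutation in mice causes dark skin, as that of Rps19 does, had 5053, 4671, 3969, 4242 and 5262 CPM in p53_activated embryos and 3642, 3237, 3612, 4094 and 4157 CPM in control embryos. A single p53_activated embryo, replicate 3, lay within the control range. Its log2 fold change was 0.31 ± 0.09 (edgeR adjusted p = 0.059), and it was called in 6 of the 24 alternative settings.
Rpl28, a large-subunit protein, was the member nearest to a fall. It had 1297, 1458, 1559, 1190.3 and 794 CPM in p53_activated embryos and 2166, 1975, 1831, 1268 and 1813 CPM in control embryos. The groups overlapped because of control replicate 4, the lowest of the controls. The log2 fold change was -0.52 ± 0.18 (edgeR adjusted p = 0.094); DESeq2 gave an adjusted p of 0.0257, and without control replicate 4 edgeR gave 0.0367. The exact coding copy Rpl28-ps1 went the other way (log2 fold change 0.70 ± 0.23, edgeR adjusted p = 0.077). With all copies added, which held 2.04% of the family's counts, Rpl28 gave -0.50 (edgeR adjusted p = 0.092). Rpl28 also shares 9.95% of its exon bases with Ube2s.
Rps15a averaged 5187 ± 566 CPM in p53_activated and 4380.4 ± 376 CPM in control embryos, a log2 fold change of 0.24 ± 0.09 (edgeR adjusted p = 0.111). Rpl10, of the subunit interface, averaged 57.1 ± 6.56 CPM in p53_activated and 47.4 ± 2.64 CPM in control embryos, a log2 fold change of 0.27 ± 0.10 (edgeR adjusted p = 0.123). Rpl19 averaged 306 ± 44.0 CPM in p53_activated and 232 ± 55.7 CPM in control embryos, a log2 fold change of 0.40 ± 0.15 (edgeR adjusted p = 0.132). In each of these last genes the groups overlapped.

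**Figure D3:**
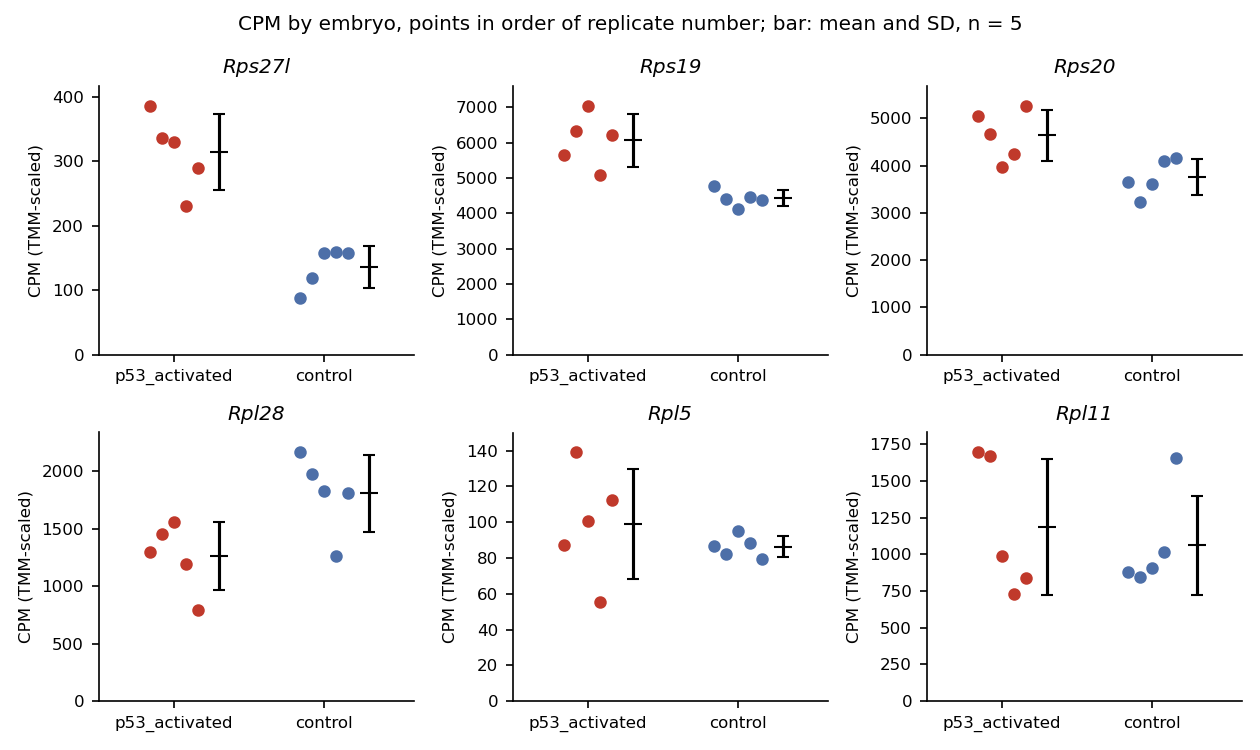
CPM (linear axes from 0) of 6 ribosomal protein genes in each embryo, p53_activated left and control right in each panel, with the mean and SD of the 5 embryos as a bar. The groups are apart for Rps27l and Rps19, overlap through p53_activated replicate 3 for Rps20 and control replicate 4 for Rpl28, and overlap widely for Rpl5 and Rpl11; Rpl11 reaches 1696 CPM in a p53_activated and 1655 CPM in a control embryo.

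Rpl5 and Rpl11, the ribosomal proteins that carry the 5S rRNA and hold back Mdm2, did not pass the test. Rpl5 had 87.4, 139, 100.5, 55.4 and 113 CPM in p53_activated embryos, and 86.8, 82.3, 95.2, 88.3 and 79.6 CPM in control embryos. Of the p53_activated embryos, replicate 4 lay below the narrow control range, replicate 1 within it and replicates 2, 3 and 5 above it. The log2 fold change was 0.19 ± 0.18 (edgeR adjusted p = 0.594). With the counts of its copies added, which include the exact coding copy Gm15500 on chromosome 7, the log2 fold change was 0.04. Rpl5 also shares 26.7% of its exon bases with Fam69a and Snord21. Rpl11 had 1696, 1673, 989, 729.6 and 839 CPM in p53_activated embryos, and 879, 848, 909, 1019 and 1655 CPM in control embryos. Its high libraries were p53_activated replicates 1 and 2 and control replicate 5, and the log2 fold change was 0.16 ± 0.29 (edgeR adjusted p = 0.804). Rpl11 changed sign in 1 of the 24 alternative settings.

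Of 18 members whose human counterparts are mutated in Diamond-Blackfan anaemia, Rps19 alone was called, against 4.49% of all genes called higher, and the median log2 fold change was 0.08, against -0.01 for all genes. The smallest p after Rps19 and Rps15a was that of Rpl35a, with 1374, 1335, 1322, 1045 and 1187 CPM in p53_activated embryos and 726, 823, 1387, 909.7 and 1352 CPM in control embryos. The groups overlapped through control replicates 3 and 5, and the log2 fold change was 0.27 ± 0.17 (edgeR adjusted p = 0.392). Of 11 members with a known mutant mouse, Rps19 was again the one called (4.49% of all genes were called higher), and the median was 0.09; the list includes Rpl38, whose loss shortens the tail and alters the axial skeleton, with a log2 fold change of 0.05 ± 0.09 (edgeR adjusted p = 0.788).

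Several members have a paralogue with tissue-specific use, so a switch between the transcripts of a pair can be looked for. Neither proteins nor ribosomes were measured. Rpl10l and Rpl39l, known from testis, and Rpl3l, known from heart and skeletal muscle, had too few counts to be tested: Rpl10l was listed at 0 in every library, Rpl39l had 34 counts over all 10 libraries and Rpl3l had 43. Their widespread partners were well measured. Rpl3 averaged 2024 ± 241 CPM in p53_activated and 1709.9 ± 226 CPM in control embryos, with a log2 fold change of 0.24 ± 0.11 (edgeR adjusted p = 0.182). Rpl39 averaged 411 ± 57.9 CPM in p53_activated and 436 ± 84.2 CPM in control embryos, with a log2 fold change of -0.08 ± 0.13 (edgeR adjusted p = 0.761).
Where both members of a pair were expressed, neither passed the test in 4 of 5 pairs, Rps27l with Rps27 being the other. Rps4x, from the X chromosome, had the smallest spread within genotypes of all members tested (SD of 0.100 on the log2 scale), with a log2 fold change of 0.03 ± 0.07; its relative Rps4l gave -0.16 ± 0.13. Rpl36a and Rpl36al gave 0.09 ± 0.09 and 0.13 ± 0.10. Rpl22, needed for T cell development, gave -0.06 ± 0.10, and Rpl22l1, which lies outside the name rule, gave 0.12 ± 0.12. Rpl7 and Rpl7l1 gave 0.02 ± 0.08 and 0.00 ± 0.10.

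Within each genotype a few members switched between a high and a low state from embryo to embryo, and for some of them a near-identical copy moved the opposite way. Rpl29, a large-subunit protein, had 8.33, 3.78, 996, 4.81 and 3.95 CPM in p53_activated embryos 1 to 5, against 3.35, 775, 826, 4.4 and 849.9 CPM in control embryos 1 to 5. The gene was thus high in p53_activated replicate 3 and control replicates 2, 3 and 5, and at 3.35 to 8.33 CPM in the others. The fitted log2 fold change was -1.28 ± 2.07 (edgeR adjusted p = 0.777), with 1 p53_activated and 3 control embryos in the high state. In the same libraries the processed pseudogene Gm14036 on chromosome 2 took the opposite course, with 659, 711, 409, 605 and 725 CPM in p53_activated embryos and 742, 325, 379, 709 and 372 CPM in control embryos. The other copy, Gm13841 on chromosome 5, had 282 to 397 CPM in p53_activated and 214 to 411 CPM in control embryos and was lower in each embryo with high Rpl29 than in any with low Rpl29. The copies took up part of the difference: Rpl29 and these copies summed to 1687 CPM in p53_activated replicate 3 and to 929 to 1111 CPM in the other p53_activated embryos, and to 1313, 1452 and 1478 CPM in control replicates 2, 3 and 5, with 1085 and 1125 CPM in the other controls. A minor copy, Gm5561, moved with Rpl29, with 14 CPM in p53_activated replicate 3 and 2.07 to 2.50 CPM in the others of that genotype, and 9.67, 13.5 and 11.4 CPM in control replicates 2, 3 and 5, with 2.22 and 2.62 CPM in the other controls. With all copies added, the log2 fold change of Rpl29 was -0.13 (edgeR adjusted p = 0.648).

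The coding sequences of Rpl29 and these copies differ at 4 of 483 positions, over the bases that all of them share, and a stretch from coding base 211 to base 300 that holds 2 of them is shown because it is what a read has to tell them apart. Rpl29 (ENSMUSG00000048758) lies at chr9:106429454-106431568 on the plus strand, Gm14036 at chr2:134803949-134804428 on the plus strand and Gm13841 at chr5:115801677-115802159 on the minus strand (GRCm38, GENCODE M21). Capitals mark the positions that are not alike in all of them.
Rpl29: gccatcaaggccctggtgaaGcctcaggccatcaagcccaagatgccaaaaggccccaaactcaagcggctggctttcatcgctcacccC
Gm14036: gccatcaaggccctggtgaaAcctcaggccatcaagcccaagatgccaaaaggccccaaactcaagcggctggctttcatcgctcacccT
Gm13841: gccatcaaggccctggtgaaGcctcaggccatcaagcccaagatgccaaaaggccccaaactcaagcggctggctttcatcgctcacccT
At the first marked position Gm13841 has the base of Rpl29, and at the last both copies share a base that Rpl29 lacks.

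In other families too the copy's part of the counts took a high or a low value, with the embryos divided differently each time. Of the counts of Rpsa and the pseudogene Rpsa-ps10 on chromosome 3, the pseudogene held 4.33%, 31.6%, 4.09%, 29.6% and 4.12% in p53_activated embryos 1 to 5 and 31.7%, 3.98%, 4.34%, 33.2% and 4.18% in control embryos 1 to 5. Rps13-ps1 on chromosome 8 held 67.1%, 45.2%, 44.3%, 71.6% and 73.1% of its sum with Rps13 in p53_activated embryos, and 47.7%, 45.2%, 71.4%, 45.6% and 46.2% in control embryos. Both fell into a high and a low class with nothing between, and each class held embryos of both genotypes.
Rps3a3 on chromosome 13 held 86.3%, 87.1%, 38.5%, 39.4% and 39.9% of its sum with Rps3a1, a small-subunit gene outside the name rule, in p53_activated embryos, and 85.5%, 39.0%, 87.6%, 38.0% and 87.4% in control embryos. Again 2 classes were seen, and the low class of one family was not that of the next. For Rpl23a no such classes were seen: Rpl23a-ps3 on chromosome 14 held at least 99.7% of their sum in every library, and Rpl23a itself had 88 counts in all and was not tested.

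**Figure D4:**
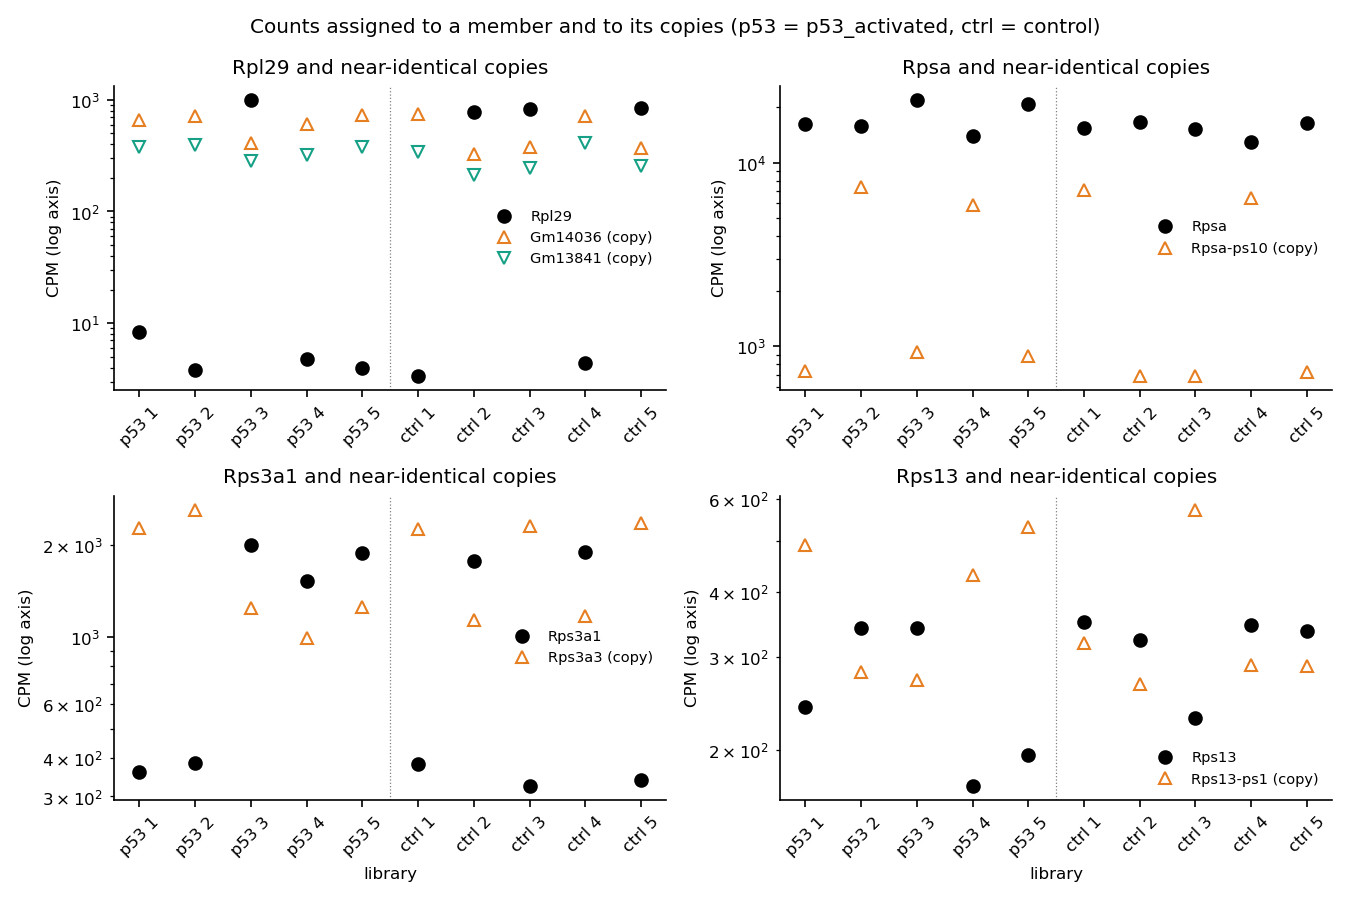
CPM (log axis) of Rpl29, Rpsa, Rps3a1 and Rps13 (filled circles) and of their near-identical copies (open triangles) in each library, p53_activated left of the dotted line and control right of it. In each panel the libraries fall into 2 classes that cross the genotypes; Rpl29 is at 996 CPM in p53_activated replicate 3 and between 3.78 and 8.33 CPM in the other p53_activated embryos.

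Rpl34 and Rps2 were also unsteady, by far more counts than their copies held. Rpl34 had 224, 215, 1498, 1161 and 755 CPM in p53_activated embryos and 712, 1421, 1315, 229.7 and 235 CPM in control embryos. The range was similar in both genotypes, with a log2 fold change of -0.02 ± 0.76 (edgeR adjusted p = 0.99), and its copies held 2.02% of the family's counts. Its copy Rpl34-ps1 was at its lowest where Rpl34 was high, with 26.3, 23.1, 7.07, 4.54 and 14.8 CPM in p53_activated embryos and 14, 5.19, 5.73, 25.2 and 24.4 CPM in control embryos. Rps2 had 616, 472, 1629, 425 and 1359 CPM in p53_activated embryos and 223, 336, 435, 1535 and 533 CPM in control embryos. The groups overlapped, with a log2 fold change of 0.55 ± 0.63 (edgeR adjusted p = 0.673), and 0.47 with the copies added, which held 19.9% of the family's counts. The copy Rps2-ps10 was lowest where Rps2 was high, at 79.9 and 73.5 CPM in p53_activated replicates 3 and 5. In control replicate 4 it was at 77.1 CPM, and in the other libraries at 82.9 to 114 CPM. Another copy, Gm12366, did not show this, at 42.4, 32.4 and 40.6 CPM in those libraries and 19.4 to 48.5 CPM in the others. In all, 72 members had a copy by the rule of 95% identity over 80% of the coding sequence; in 23 families more than 10% of the counts lay in the copies and in 7 more than 50%. Adding the counts of 458 copies to 71 members left Rps27l and Rps19 as the calls and gave a median log2 fold change of 0.06.

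Summed over all 83 members, the share of a library's counts was 18.9%, 19.4%, 20.7%, 17.6% and 20.0% in p53_activated embryos 1 to 5, against 18.0%, 17.9%, 18.3%, 18.2% and 18.3% in control embryos 1 to 5. Of the p53_activated embryos, 4 lay above every control embryo and replicate 4 lay below all of them. The means were 19.3 ± 1.18% in p53_activated and 18.2 ± 0.177% in control embryos (SD, n = 5 each), a difference of 1.1 percentage points that was 1.57 without p53_activated replicate 4 and 0.788 without p53_activated replicate 3. With the copies counted in, the means were 20.2 ± 1.04% in p53_activated and 19.0 ± 0.355% in control embryos; p53_activated replicate 4, at 18.7%, then lay within the control range of 18.4% to 19.4%, and the other p53_activated embryos above it. The library of p53_activated replicate 4 was the deepest of all and differed from the others in how its levels went with gene length: the Spearman correlation of centred log2 CPM with exon length over genes was 0.317 in it and -0.240 to 0.165 in the other libraries. What part this has in its low share was not tested, nor was that of the neuron markers, which were lower in p53_activated embryos. The share is a part of a whole, so it says nothing of the absolute amount of these transcripts per cell.

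**Figure D5:**
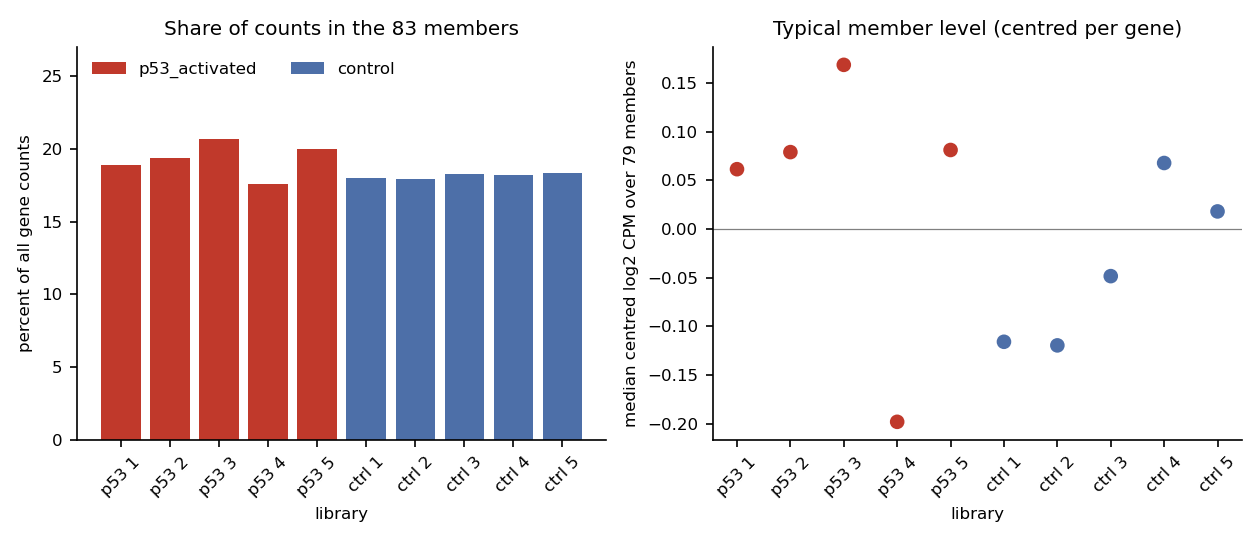
Left, percent of all gene counts in the 83 ribosomal protein genes by library (bars from 0, p53_activated first); right, median over the 79 tested members of log2 CPM centred on each gene's mean over all libraries. In both panels p53_activated replicate 3 is the highest library and p53_activated replicate 4 the lowest, at 20.7% and 17.6% on the left.

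The start sites of members were searched for runs of pyrimidines, since mRNAs under translational control by mTOR begin with one. In the 30 bases centred on each RefSeq start, a run of at least 8 C or T occurred before, after or across the start at 28 of 74 starts of members (37.8%), against 12% of all 32851 starts (given strand only). The windows of Rps27l, Rps27 and Rpl28, the members with the clearest rise, its paralogue and the member nearest to a fall, are shown with their longest run in capitals (GRCm38.p6, at chr9:66946071-66946100 plus strand, chr3:90213634-90213663 minus strand and chr7:4792950-4792979 plus strand).
Rps27l start: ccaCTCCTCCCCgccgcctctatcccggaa
Rps27 start: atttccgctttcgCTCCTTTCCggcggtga
Rpl28 start: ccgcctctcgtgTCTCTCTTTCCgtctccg
All of these windows hold a run of 9 or more. In Rps27 and Rpl28 the run spans the annotated start, while in Rps27l it ends before that start and so lies outside the annotated mRNA.

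The factors that build the ribosome gave a few calls, all of them higher in p53_activated embryos. Of 51 small-subunit biogenesis factors tested, 3 were called higher, against 4.49% of all genes, and 45 had a positive log2 fold change, against 48.6% of all genes (median 0.13, against -0.01). Utp20, of the small-subunit processome, had 55.7, 54.6, 53.7, 61.3 and 49.2 CPM in p53_activated embryos and 23.8, 25.1, 26.2, 24.3 and 22.2 CPM in control embryos, without overlap (log2 fold change 1.17 ± 0.10, edgeR adjusted p = 1.53e-06). The others were Rrp12, an export factor (0.44 ± 0.10), and Tsr1, which acts in late maturation (0.92 ± 0.23; 32.3% of its exon bases are shared with another gene).
Of 57 large-subunit factors, 3 were called higher, against the same 4.49%, and 50 had a positive log2 fold change, against 48.6% of all genes (median 0.15). Mdn1, the giant ATPase that strips assembly factors from the large subunit, had 23.9, 31.0, 37.0, 56.1 and 45.4 CPM in p53_activated embryos and 18.4, 13.7, 15.8, 17 and 20.9 CPM in control embryos. The groups did not overlap, with a log2 fold change of 1.17 ± 0.20 (edgeR adjusted p = 0.00215). Mdn1 was highest in p53_activated replicates 4 and 5, where the Spearman correlation of levels with exon length was also highest (0.317 and 0.165). Among controls Mdn1 was highest in replicate 5, where that correlation was -0.198. What part exon length has in this call was not tested. Mak16 (0.66 ± 0.16) and Noc2l (0.48 ± 0.14) were also called, and share 39.4% and 20.9% of their exon bases with other genes.

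Of 22 regulators of ribosome production, 3 were called higher, against 4.49% of all genes, all of the mTOR branch: the translation repressors Eif4ebp1 (log2 fold change 0.68 ± 0.17) and Eif4ebp2 (1.86 ± 0.37), and the kinase gene Mtor itself (0.66 ± 0.19, edgeR adjusted p = 0.0436). Of 21 translation factors whose mRNAs carry the same pyrimidine start, Eif3a (0.48 ± 0.09) and Pabpc1 (0.34 ± 0.09) were called higher, against 4.49% of all genes, and the median was 0.06. Of 10 snoRNA host genes tested, none was called by edgeR, and the median was 0.29. At an unadjusted p under 0.05, 5 were higher (22.6% of all genes in either direction). DESeq2 called 1 (11.5% of all genes in either direction). Of 11 dedicated chaperones of ribosomal proteins tested, none was called by edgeR or DESeq2, and the median was 0.04. At an unadjusted p under 0.05, 2 of them were higher, against 22.6% of all genes in either direction.
Mitochondrial ribosomal proteins, which belong to a separate ribosome of bacterial descent, were mostly on the other side of 0. Of 77 tested, 27 had a positive log2 fold change, against 48.6% of all genes. At an unadjusted p under 0.05 there were 1 higher and 7 lower, against 22.6% of all genes in either direction. The gene Mrps6 was called higher (0.36 ± 0.10; 19.9% of its exon bases shared with another gene) and Mrpl41 lower (-0.36 ± 0.07), 2 calls against 7.23% of all genes, with a median of -0.06.
All 13 calls in these lists are from the fit with no trend on exon length removed. Of these calls, those of Utp20, Mdn1, Eif4ebp2, Eif3a and Mrpl41 held with each library left out in turn. Without p53_activated replicate 2 the calls of Rrp12, Tsr1, Mak16, Eif4ebp1, Mtor, Pabpc1 and Mrps6 were lost, and among the fits that left out 1 library that of Noc2l held without p53_activated replicate 2 and without control replicate 4 only. The share of all genes called in these fits is not at hand.

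In the authors' deposited table, 4 members had an adjusted p under 0.05, among 1624 of 15089 genes. The authors' deposited table gives a log2 fold change of 1.12 for Rps27l (adjusted p = 1.61e-10) and of 0.44 for Rps19 (adjusted p = 0.000191). The authors' deposited table also lists Rps20 at 0.30 (adjusted p = 0.0411) and Rpl28 at -0.48 (adjusted p = 0.0245), the genes that came next in the edgeR fit without passing.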

How the data were processed

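The authors deposited raw read counts per Ensembl gene for 10 libraries, matched to embryos by the sample numbers in the labels. Trypsin dissociation, a 7AAD gate against dead cells and TruSeq libraries of polyadenylated RNA, each from a single embryo, are given per the labels' protocols. Tools named, without their roles, per the submitters' processing notes are DESeq2 1.14.1, HTSeq 0.6.1, HISAT2 2.0.4 and SAMtools 1.3.1, with the build GRCm38; for the annotation release, the strand setting and reads matching several places, the setting is not given in the sources used here. A second deposited table holds, per the file headers, the Wald statistic (a score), the p-value before and after adjustment, the log2 fold change and its SE, and the mean normalized count (a signal).

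Counts were tested as deposited, over the whole table, in 1 comparison of p53_activated with control embryos: filterByExpr (minimum count 10, minimum total 15), TMM scaling and, under R 4.3.3, the robust quasi-likelihood F-test of edgeR 4.0.16; no covariate entered the fit of all 10 libraries. Adjusted p (Benjamini-Hochberg over 14528 genes) were called under 0.05. The SE was taken from the F statistic (fold change over its square root), and a prior count of 2 was added for log2 CPM. The script was tested on simulated data. No row was without a gene name. Exon lengths, overlaps and coding sequences are from GENCODE M21 (99.5% of gene identifiers found); near-identical copies were found with blastn 2.17.0 (at least 95% identity over 80% of the coding sequence, and at least 50% of the copy's exon length to be summed).

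The members and the gene lists were chosen with earlier results of these data known, and no list was tested as a set. The rule names the members called, Rpl5 and Rpl11, the paralogue pairs, the 5 highest and 5 lowest per kilobase, the 5 next smallest p, the 3 largest and 3 smallest fold changes, members not tested, and the smallest p of each other list. Rpl34, Rpl35a, the copy Gm5561 and the copies of Rps13, Rpsa, Rps3a1, Rpl34, Rpl28 and Rps2 were chosen after their values were seen. Alternatives covered scaling by total counts, RLE or upper quartile, other filters, DESeq2 1.42.0, limma-voom 3.58.1, non-robust dispersions, embryo sex or replicate number as a term, removal of a lowess trend on exon length (span 0.3), pseudogene rows added, and leaving out each library. Adding near-identical copies was chosen after seeing the data. Totals of 12368058 to 28379562 counts per library set the precision.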

Additional observations from a re-analysis of the deposited data

Results flagged for a closer look

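Of 64 groups of 5 values looked at (each named member in each genotype, and the share of counts), 6 held a library far from the other 4; chance flags about 1 in 20 groups. Rpl11 stood at 1655 CPM in control replicate 5, against 848 to 1019 CPM in the other controls. Rpl22 stood at 654 CPM in p53_activated replicate 4, against 829 to 864 CPM in the other p53_activated embryos. Rpl29 stood at 996 CPM in p53_activated replicate 3, against 3.78 to 8.33 CPM in the others of that genotype. Rpl36a stood at 1339 CPM in control replicate 1, against 1138 to 1187 CPM in the other controls. Rps13 stood at 229.7 CPM in control replicate 3, against 323 to 349.9 CPM in the other controls. Rps2 stood at 1535 CPM in control replicate 4, against 223 to 533 CPM in the other controls. For Rpl29, Rps13 and Rps2 the counts of a near-identical copy moved the other way in the same library, for Rps2 by far fewer counts. No member with such a library passed the test in any of the 24 alternative settings.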

How the results depend on the processing

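Rps27l and Rps19 were called in every one of the 24 alternatives. The number of members called was 2, and 4 with DESeq2 and 8 with the trend on exon length removed; leaving out 1 library gave 2 to 5, with 5 without p53_activated replicate 4 and 4 without control replicate 4. The cause of these differences was not tested. The share of all genes called is not at hand for the fits that left out 1 library or took the replicate number as a block. A change in calls over all genes therefore cannot be told apart from one in these genes. Calls over the related lists were 13, against 24 with DESeq2 and 6 to 22 when 1 library was left out (6 without p53_activated replicate 2, 8 without control replicate 2, 22 without p53_activated replicate 4). Over all genes, edgeR called 7.23% and DESeq2 called 11.5%, so DESeq2 gave more calls outside these lists too. The median log2 fold change of members was positive in every alternative, from 0.03 (upper quartile scaling, where the median of all genes was -0.05) to 0.15, and the difference in share of counts ran from 0.788 to 1.57 percentage points. Of 744 values of single named members under an alternative, 12 became called and 732 kept their side of the threshold.

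The same replicate numbers occur in both genotypes. Deviations of same-numbered libraries correlated at -0.0529 to 0.113, and 1 of 5 numbers was highest with its own partner. These values gave no sign that the numbers pair the embryos, but they cannot exclude it. With the replicate number as a block, 2 members were called, the same ones, with an adjusted p of 0.0122 for Rps27l and 0.0326 for Rps19; with the block and the length trend removed there were again 2. Calls over the related lists with the block were 9.

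With 5 embryos a group and a median SE of 0.098 on the log2 scale, small shifts of single members are not detectable at an adjusted p of 0.05. Members with near-identical copies are measured only as reads assigned to them, and genes with overlapping exons are uncertain because the strand setting is not given.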
